A study of Mus musculus with 8 samples.

Results

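Mouse embryonic fibroblasts treated with 1% DMSO were compared at day 7 with the same cells treated with 0.1% ethanol. In both, retroviruses for the GHMT factors, Gata4, Hand2, Mef2c and Tbx5, drove the cells towards heart muscle. The members are the 34250 genes with a mean normalised count above 0, of 50600 genes listed in the authors' deposited table for DMSO. Of these, 14830 carry an adjusted p in the authors' deposited table and are called tested genes here. Every library came from embryonic fibroblasts of C57BL/6 mice that carried the GHMT viruses and were grown in StemPro-34 SFM. There were 2 libraries each with 1% DMSO, with 5 µM I-CBP112, a ligand of the CBP/p300 bromodomains, with 5 µM C646, an inhibitor of the acetyltransferase activity of CBP/p300, and with 0.1% ethanol. The tables do not name their reference, which was taken to be ethanol because it is the treatment with no table of its own. No untreated cells were among the samples, so the presence of DMSO and the absence of ethanol cannot be told apart, and no label gives the solvents of the 2 inhibitors. The tables hold no value of a single library. Group means were therefore rebuilt from the deposited mean count and fold changes, and the spread between libraries enters through the standard error (SE) of each log2 fold change. Each group holds replicates numbered 2 and 3, and the labels give neither what the numbers stand for nor whether the fit used them. No label says whether the 2 libraries of a group were separate cultures. The p-values rest on 1 spread between libraries per gene, shared by all 4 groups, which may be technical.

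DMSO is a small polar solvent that enters cells freely, is used to carry drugs and to protect frozen cells, and at percent concentrations is known to induce differentiation in some embryonal carcinoma and leukaemia cell lines. Cells can reduce it with methionine sulfoxide reductases, and they handle changes in water content with aquaporins and osmolyte transporters. Ethanol is oxidised by alcohol dehydrogenases to acetaldehyde and by aldehyde dehydrogenases to acetate, which acetyl-CoA synthetases turn into acetyl-CoA. Embryonic fibroblast cultures are mixed mesenchymal populations in which, after GHMT transduction, only some cells take on a muscle programme. In such bulk RNA, fewer cells of a type and less RNA per cell cannot be told apart.

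The labelled cell type was checked on its markers. All 12 fibroblast identity markers were tested genes, and their rebuilt means summed to 669366 normalised counts with DMSO and 1040497 with ethanol. Of the 12, 10 fell and 0 rose. Col3a1, a fibrillar collagen, averaged 279500.0 normalised counts with DMSO and 442902 with ethanol, with a log2 fold change of -0.66 ± 0.12 in the authors' deposited table (adjusted p = 6.51e-07). Pdgfra, a growth factor receptor of mesenchymal cells, averaged 7489 normalised counts with DMSO and 11608 with ethanol, with a log2 fold change of -0.63 ± 0.11 in the authors' deposited table (adjusted p = 1.18e-06). Of 9 pericyte markers 8 were tested and 5 fell, their sum being 3068 normalised counts with DMSO and 4625 with ethanol. Cspg4, the NG2 proteoglycan of pericytes, was at -1.22 ± 0.18 in the authors' deposited table (adjusted p = 2.72e-10), and the potassium channel subunits Kcnj8 and Abcc9 of the same list, at 0.75 ± 0.45 and 0.0081 ± 0.37 in the authors' deposited table, did not pass the test. Of 12 Schwann cell and melanocyte markers 5 were tested and 2 fell, with sums of 1147 normalised counts with DMSO and 1118 with ethanol and with Dct at 0 in all libraries. None of the 8 hepatocyte and 11 pluripotent and germ cell markers was a tested gene, with sums of 19.6 and 56.5 normalised counts with DMSO and of 20.1 and 44.3 with ethanol. Of 11 erythroid and mast cell markers 1 was tested, the mast cell protease Mcpt4, at 339 normalised counts with DMSO and 556 with ethanol, and it did not pass the test; 5 of the 11, among them Gata1, had no count in any library. What part these cell types had in the changes of other genes was not tested.

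By the adjusted p in the authors' deposited table (below 0.05), 2368 genes changed with DMSO, 16.0% of the tested genes, of which 1197 (8.07%) rose and 1171 (7.90%) fell. Between 0.25 and 0.5 on the log2 scale 398 genes rose and 216 fell, and between 0.5 and 1 there were 562 and 506. Between 1 and 2 on the log2 scale 195 rose and 358 fell, and above 2 there were 42 and 91. Small changes were thus more often upward and large ones more often downward. With fold changes centred on the median gene, 299 rose and 245 fell in the smallest class, 462 and 560 in the next, and 972 and 1283 in all, so the balance depends on the scaling. It also turned, to 884 and 1001 in all, when genes of low count were kept in the adjustment. Changes of at least 2-fold numbered 686 (4.63% of the tested genes), 1.60% upward and 3.03% downward. Genes that rose held 10.9% of all rebuilt counts with DMSO and 7.08% with ethanol, while genes that fell held 9.61% with DMSO and 15.2% with ethanol. Among the 437 genes with a mean count of 10000 or more, 41 rose and 96 fell, 9.38% and 22.0%. In the 2849 genes with a mean count under 100, where the median SE was 0.50, the shares were 1.97% and 4.42%. The smallest change that passed measured 0.29 on the log2 scale, and the median SE of tested genes was 0.18, with 5th and 95th percentiles of 0.12 and 0.59. The 2 libraries per group leave each call resting on a spread pooled over genes: with a t distribution (4 degrees of freedom) replacing the normal one, 1 gene, Myl1, passed.

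**Figure D1:**
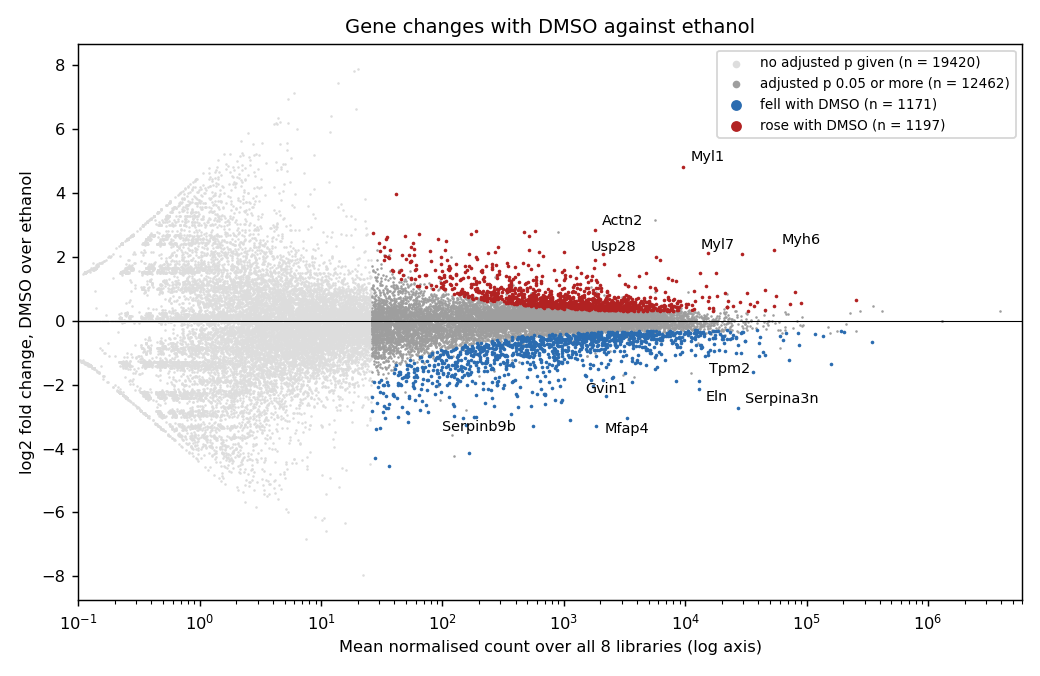
Log2 fold change of DMSO over ethanol in the authors' deposited table (vertical axis) against the mean normalised count over all 8 libraries (horizontal log axis), 1 point per gene, for the 34250 genes with counts. Red points are the 1197 genes that rose, blue points the 1171 that fell, dark grey points the 12462 that did not pass and light grey points the 19420 without an adjusted p; Myl1, at 4.83, is the highest of the red points, and the light grey points on the left, of low mean count, spread further from 0 than any coloured point.

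The start regions of 4 of the genes with the largest Wald statistics are shown because genes that rose and genes that fell differed in the CpG content of their starts. Each sequence runs 5′ to 3′ along the gene's strand, covering 250 bases before and 50 after the start in RefSeq (GRCm38.p6), with every CpG in capitals. The first, Myl1, lies at chr1:66945007-66945306 (minus strand), Usp28 at chr9:48985135-48985434 (plus strand), Serpina3n at chr12:104406458-104406757 (plus strand) and Col28a1 at chr6:8192568-8192867 (minus strand).
Myl1: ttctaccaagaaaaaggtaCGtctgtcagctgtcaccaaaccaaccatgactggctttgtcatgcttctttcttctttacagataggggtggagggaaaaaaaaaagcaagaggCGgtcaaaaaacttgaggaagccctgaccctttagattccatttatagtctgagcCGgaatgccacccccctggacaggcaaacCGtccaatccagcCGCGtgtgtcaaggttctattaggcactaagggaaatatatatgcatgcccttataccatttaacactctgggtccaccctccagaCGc
Usp28: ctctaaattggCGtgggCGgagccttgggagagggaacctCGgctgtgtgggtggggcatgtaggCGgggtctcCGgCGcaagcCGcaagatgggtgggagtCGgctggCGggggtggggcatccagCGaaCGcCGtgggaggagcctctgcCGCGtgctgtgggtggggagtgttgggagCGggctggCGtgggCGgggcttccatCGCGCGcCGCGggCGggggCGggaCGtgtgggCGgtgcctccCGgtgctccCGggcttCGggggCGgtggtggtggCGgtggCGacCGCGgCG
Serpina3n: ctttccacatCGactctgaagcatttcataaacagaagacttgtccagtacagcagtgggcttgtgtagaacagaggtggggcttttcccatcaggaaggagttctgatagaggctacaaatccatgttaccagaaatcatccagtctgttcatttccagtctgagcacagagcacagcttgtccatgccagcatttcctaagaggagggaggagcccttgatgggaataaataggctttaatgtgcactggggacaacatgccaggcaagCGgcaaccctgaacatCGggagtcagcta
Col28a1: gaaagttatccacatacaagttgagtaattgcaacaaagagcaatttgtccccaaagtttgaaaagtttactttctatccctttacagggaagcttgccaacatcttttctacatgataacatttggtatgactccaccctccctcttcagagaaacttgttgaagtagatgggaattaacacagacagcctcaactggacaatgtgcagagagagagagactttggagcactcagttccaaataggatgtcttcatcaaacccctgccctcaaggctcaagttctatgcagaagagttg
Myl1, an essential light chain of myosin, averaged 28824 normalised counts with DMSO and 1015 with ethanol, a log2 fold change of 4.83 ± 0.13 in the authors' deposited table (adjusted p = 9.53e-292). Usp28, a deubiquitinating enzyme, averaged 3314 normalised counts with DMSO and 895 with ethanol, a log2 fold change of 1.89 ± 0.15 in the authors' deposited table (adjusted p = 9.17e-35). These are the genes with the first and the eighth largest Wald statistic upward, and their printed regions hold 7 and 35 CpGs. Serpina3n, a secreted serine protease inhibitor, averaged 5974 normalised counts with DMSO and 39868 with ethanol, a log2 fold change of -2.74 ± 0.11 in the authors' deposited table (adjusted p = 3.5e-137). Col28a1, a collagen of basement membranes around glia, averaged 216 normalised counts with DMSO and 1845 with ethanol, a log2 fold change of -3.09 ± 0.16 in the authors' deposited table (adjusted p = 1.24e-79). Their printed regions hold 3 and 0 CpGs, and these 4 examples were picked after their values were seen. Over 27025 RefSeq promoters of the same window, 1 per symbol, the median was 7 CpGs. The counts over all genes given next were made on another region.

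Over all genes, the count was made on the first 300 bases of the longest GENCODE M21 transcript, which 14644 of the tested genes have (98.7%). The median was 23 CpGs for genes that rose, 13 for genes that fell and 18 for genes that did not pass. Of genes with 31 or more CpGs there, 12.6% rose and 5.31% fell, against 8.07% and 7.90% of all tested genes. Of genes with 3 to 5 CpGs, 5.08% rose and 12.4% fell. The lowest class, with 0 to 2 CpGs, had 4.60% that rose and 7.44% that fell, so falls were not most frequent there. Mean counts moved with CpG content as well, with a median mean count of 198 in genes with 3 to 5 CpGs and of 1126 in those with 31 or more. Among genes whose mean count reached 300, the corresponding shares were 13.7% and 5.04% with 31 or more CpGs, and 8.70% and 18.6% with 3 to 5. With 0 to 2 CpGs they were 10.4% and 13.7%. With the fold changes centred on the median gene, 10.2% rose and 6.11% fell among genes with 31 or more CpGs, and 4.31% and 13.4% among those with 3 to 5. Genes that rose at least 2-fold had a median of 16 CpGs and those that fell at least 2-fold a median of 10. The longest transcript's start need not be the start used in these cells.

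**Figure D2:**
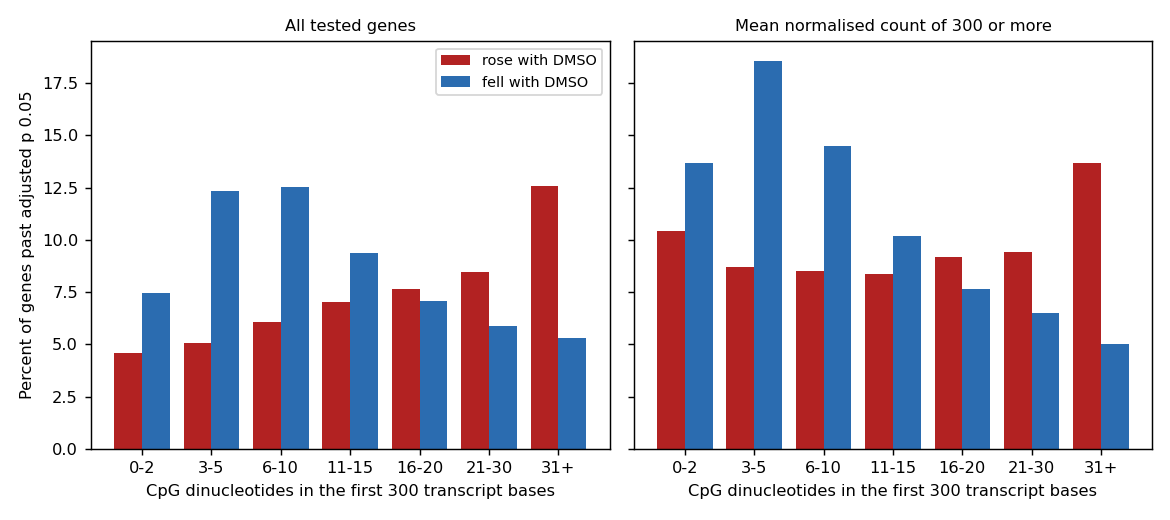
Percent of genes past the authors' adjusted p of 0.05 (vertical axis) in classes of the number of CpGs in the first 300 transcript bases (horizontal axis), for all tested genes on the left and for those whose mean normalised count reached 300 on the right. The red bars, genes that rose, are highest at 31 or more CpGs with 12.6% and 13.7%, while the blue bars, genes that fell, are lowest there with 5.31% and 5.04%.

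Beyond the 8 steepest rises, ranks 9 to 20 by fold change held membrane proteins, secreted enzymes and further muscle genes. Abcb4, a phospholipid transporter best known from bile canaliculi, averaged 230.0 normalised counts with DMSO and 41.0 with ethanol and stood at 2.49 ± 0.35 in the authors' deposited table (adjusted p = 6.62e-11). Celsr1, an atypical cadherin of planar cell polarity, averaged 125 normalised counts with DMSO and 23.0 with ethanol and stood at 2.44 ± 0.49 in the authors' deposited table (adjusted p = 1.55e-05). The actin-binding activator of serum response factor signalling Abra averaged 544 normalised counts with DMSO and 109 with ethanol and stood at 2.32 ± 0.22 in the authors' deposited table (adjusted p = 1.39e-22). Muscle proteins in this range also included the alpha heavy chain of cardiac myosin, Myh6, and the sarcomeric ubiquitin ligase Trim55. Trim55 averaged 163 normalised counts with DMSO and 36.1 with ethanol and stood at 2.18 ± 0.38 in the authors' deposited table (adjusted p = 3.93e-07), and Myh6 averaged 91239 normalised counts with DMSO and 19485 with ethanol and stood at 2.23 ± 0.16 in the authors' deposited table (adjusted p = 3.88e-39). Membrane lipid enzymes were represented by the phospholipid flippase Atp8a1 and the lysophospholipid acyltransferase Mboat2. Atp8a1 averaged 1187 normalised counts with DMSO and 264 with ethanol and stood at 2.17 ± 0.19 in the authors' deposited table (adjusted p = 1.18e-26). Mboat2 averaged 951 normalised counts with DMSO and 205 with ethanol and stood at 2.21 ± 0.20 in the authors' deposited table (adjusted p = 2.45e-26). Acetylcholinesterase, Ache, an enzyme of synapses that ends acetylcholine signalling, averaged 1925 normalised counts with DMSO and 432 with ethanol and stood at 2.16 ± 0.17 in the authors' deposited table (adjusted p = 9.55e-33). The kinase Wnk4, a regulator of chloride cotransporters in kidney, averaged 505 normalised counts with DMSO and 114 with ethanol and stood at 2.15 ± 0.24 in the authors' deposited table (adjusted p = 1.9e-16). The organic anion transporter family member Slco5a1 and the dense-core vesicle protein Hid1 were also in the range, at 2.30 ± 0.44 and 2.21 ± 0.37 in the authors' deposited table.

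Ranks 9 to 20 downward held protease inhibitors, a carboxypeptidase, genes of immune defence and a muscle gene. Tnnt3, the troponin T of fast skeletal muscle, averaged 28.4 normalised counts with DMSO and 181 with ethanol and stood at -2.67 ± 0.45 in the authors' deposited table (adjusted p = 1.69e-07), in the direction opposite to the muscle genes of the upward ranks. Slc6a2, the noradrenaline transporter, averaged 40.3 normalised counts with DMSO and 324 with ethanol and stood at -3.01 ± 0.34 in the authors' deposited table (adjusted p = 1.49e-16). The carboxypeptidase Cpa4 averaged 28.0 normalised counts with DMSO and 221 with ethanol and stood at -2.98 ± 0.37 in the authors' deposited table (adjusted p = 1.03e-13). Timp4, an inhibitor of matrix metalloproteinases, averaged 13.4 normalised counts with DMSO and 93.1 with ethanol and stood at -2.79 ± 0.45 in the authors' deposited table (adjusted p = 2.75e-08). Serpina3m, a close paralogue of Serpina3n, averaged 71.3 normalised counts with DMSO and 544 with ethanol and stood at -2.93 ± 0.23 in the authors' deposited table (adjusted p = 5.69e-35); reads of these near-identical genes could be split between them, which leaves each single value uncertain. C4b, the fourth component of complement, averaged 137 normalised counts with DMSO and 880.4 with ethanol and stood at -2.68 ± 0.28 in the authors' deposited table (adjusted p = 1.88e-19). Tgtp2, an interferon-induced GTPase with a close paralogue, averaged 15.7 normalised counts with DMSO and 114 with ethanol and stood at -2.86 ± 0.52 in the authors' deposited table (adjusted p = 1.39e-06). Amino acid breakdown appeared with the tryptophan dioxygenase Tdo2 and the asparaginase Aspg. Tdo2 averaged 168 normalised counts with DMSO and 1030.1 with ethanol and stood at -2.61 ± 0.24 in the authors' deposited table (adjusted p = 1.55e-24), and Aspg averaged 9.59 normalised counts with DMSO and 69.6 with ethanol and stood at -2.86 ± 0.56 in the authors' deposited table (adjusted p = 1.06e-05). Kcnj15, an inward rectifier potassium channel, averaged 103 normalised counts with DMSO and 671 with ethanol and stood at -2.70 ± 0.29 in the authors' deposited table (adjusted p = 6.02e-18). Rgs5, a brake on G protein signalling and a pericyte marker, averaged 12.9 normalised counts with DMSO and 94.5 with ethanol and stood at -2.88 ± 0.55 in the authors' deposited table (adjusted p = 5.27e-06).

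Counted in reads, which also grow with transcript length, the order of the genes past the test differed in part from that by fold change. Among these genes Malat1, an abundant nuclear long noncoding RNA, had the largest gain in rebuilt counts, averaging 319821 normalised counts with DMSO and 205135 with ethanol, and stood at 0.64 ± 0.15 in the authors' deposited table (adjusted p = 0.000259). Pam, an enzyme that amidates peptide hormones, averaged 113264 normalised counts with DMSO and 76744 with ethanol and stood at 0.56 ± 0.10 in the authors' deposited table (adjusted p = 1.94e-06). Txnip, an inhibitor of thioredoxin that also restrains glucose uptake, averaged 67997 normalised counts with DMSO and 35005 with ethanol and stood at 0.96 ± 0.15 in the authors' deposited table (adjusted p = 1.18e-08). The other gains among the top 8 were the muscle genes Myh6, Tnnt2, Myl7, Ankrd1 and Myl1. The losses among genes past the test were led by Col3a1, followed by H19, an imprinted long noncoding RNA, which averaged 87099 normalised counts with DMSO and 221183 with ethanol and stood at -1.34 ± 0.17 in the authors' deposited table (adjusted p = 2.45e-13). Its imprinted neighbour Igf2, a fetal growth factor, averaged 17433 normalised counts with DMSO and 53364 with ethanol and stood at -1.61 ± 0.13 in the authors' deposited table (adjusted p = 3.65e-33). Flna, an actin crosslinker, averaged 59478 normalised counts with DMSO and 100849 with ethanol and stood at -0.76 ± 0.11 in the authors' deposited table (adjusted p = 1.92e-10). Sparc and Actb, at -0.34 ± 0.12 and -0.32 ± 0.12 in the authors' deposited table, were also among the top 8 losses, and both calls were lost when genes of low count were kept in the adjustment. Cytoplasmic actin, Actb, averaged 165322 normalised counts with DMSO and 205976 with ethanol.

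Genes of water balance and of the chemistry of DMSO were taken next. Of 21 tested osmolyte and cell volume genes 2 rose and 0 fell. The median log2 fold change of the list was 0.13, beside 0.035 for all tested genes. The taurine transporter Slc6a6 averaged 3386 normalised counts with DMSO and 2013 with ethanol and stood at 0.75 ± 0.13 in the authors' deposited table (adjusted p = 4.23e-07), and the kinase Stk39, which activates chloride cotransporters, stood at 0.47 ± 0.16 in the authors' deposited table (adjusted p = 0.0204). Nfat5, the transcription factor of the hypertonic response, was at -0.17 ± 0.20 in the authors' deposited table and did not pass the test. Of 3 tested aquaporins 2 fell, with a median of -0.88, and the remaining 1, at 0.77, did not pass the test. Aqp4 averaged 122 normalised counts with DMSO and 223 with ethanol and stood at -0.88 ± 0.27 in the authors' deposited table (adjusted p = 0.0129), while Aqp1, the steepest fall of the list, averaged 689.8 normalised counts with DMSO and 5689 with ethanol. Of 18 genes of sulfoxide reduction and sulfur metabolism 1 rose and 2 fell, with a median of 0.14. Msrb1, a methionine sulfoxide reductase, averaged 1376 normalised counts with DMSO and 1801 with ethanol and stood at -0.39 ± 0.13 in the authors' deposited table (adjusted p = 0.021). Papss2, which makes the sulfate donor PAPS, averaged 2117 normalised counts with DMSO and 3199.9 with ethanol and stood at -0.60 ± 0.12 in the authors' deposited table (adjusted p = 3.05e-05), and Csad, an enzyme of taurine synthesis, stood at 0.43 ± 0.12 in the authors' deposited table (adjusted p = 0.00578). The reductases Msra and Msrb3, at 0.37 ± 0.24 and 0.25 ± 0.15 in the authors' deposited table, did not pass the test. The called shares of the osmolyte and sulfur lists, 9.52% and 16.7%, were below and near the 16.0% of all tested genes.

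Alcohol, aldehyde and retinoid genes changed in both directions. Of 20 alcohol and aldehyde metabolism genes 4 rose and 2 fell, with a median of 0.21, and 2 rose and 3 fell with the fold changes centred on the median gene, 2 and 1 when genes of low count were kept in the adjustment. Acss2, which makes acetyl-CoA from acetate, averaged 1353 normalised counts with DMSO and 620.2 with ethanol and stood at 1.13 ± 0.15 in the authors' deposited table (adjusted p = 3.03e-11). Adh1, an alcohol dehydrogenase that also oxidises retinol, averaged 4954 normalised counts with DMSO and 3456 with ethanol and stood at 0.52 ± 0.14 in the authors' deposited table (adjusted p = 0.00244). Aldh3a1, an aldehyde dehydrogenase abundant in cornea, averaged 7456 normalised counts with DMSO and 15499 with ethanol and stood at -1.06 ± 0.15 in the authors' deposited table (adjusted p = 5.29e-10). Retinoic acid is made from retinol by dehydrogenases and acts through nuclear receptors, and of 18 tested genes of this pathway 3 rose and 7 fell, with a median of -0.48. Rarb, a retinoic acid receptor, averaged 350.0 normalised counts with DMSO and 134 with ethanol and stood at 1.38 ± 0.25 in the authors' deposited table (adjusted p = 7.89e-07). Rdh10, which oxidises retinol to retinaldehyde, averaged 804 normalised counts with DMSO and 449 with ethanol and stood at 0.84 ± 0.17 in the authors' deposited table (adjusted p = 1.68e-05). The fall was steepest for Crabp1, a cytoplasmic retinoic acid binding protein, which averaged 116 normalised counts with DMSO and 466 with ethanol and stood at -2.01 ± 0.23 in the authors' deposited table (adjusted p = 4.3e-16). Aldh1a1, which oxidises retinaldehyde to retinoic acid, averaged 10988 normalised counts with DMSO and 21109 with ethanol and stood at -0.94 ± 0.12 in the authors' deposited table (adjusted p = 9.66e-14). Cyp26b1, which clears retinoic acid, averaged 59.7 normalised counts with DMSO and 156 with ethanol and stood at -1.39 ± 0.32 in the authors' deposited table (adjusted p = 0.000239). Genes of synthesis, of transport inside the cell and of clearance thus each had a member that fell.

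**Figure D3:**
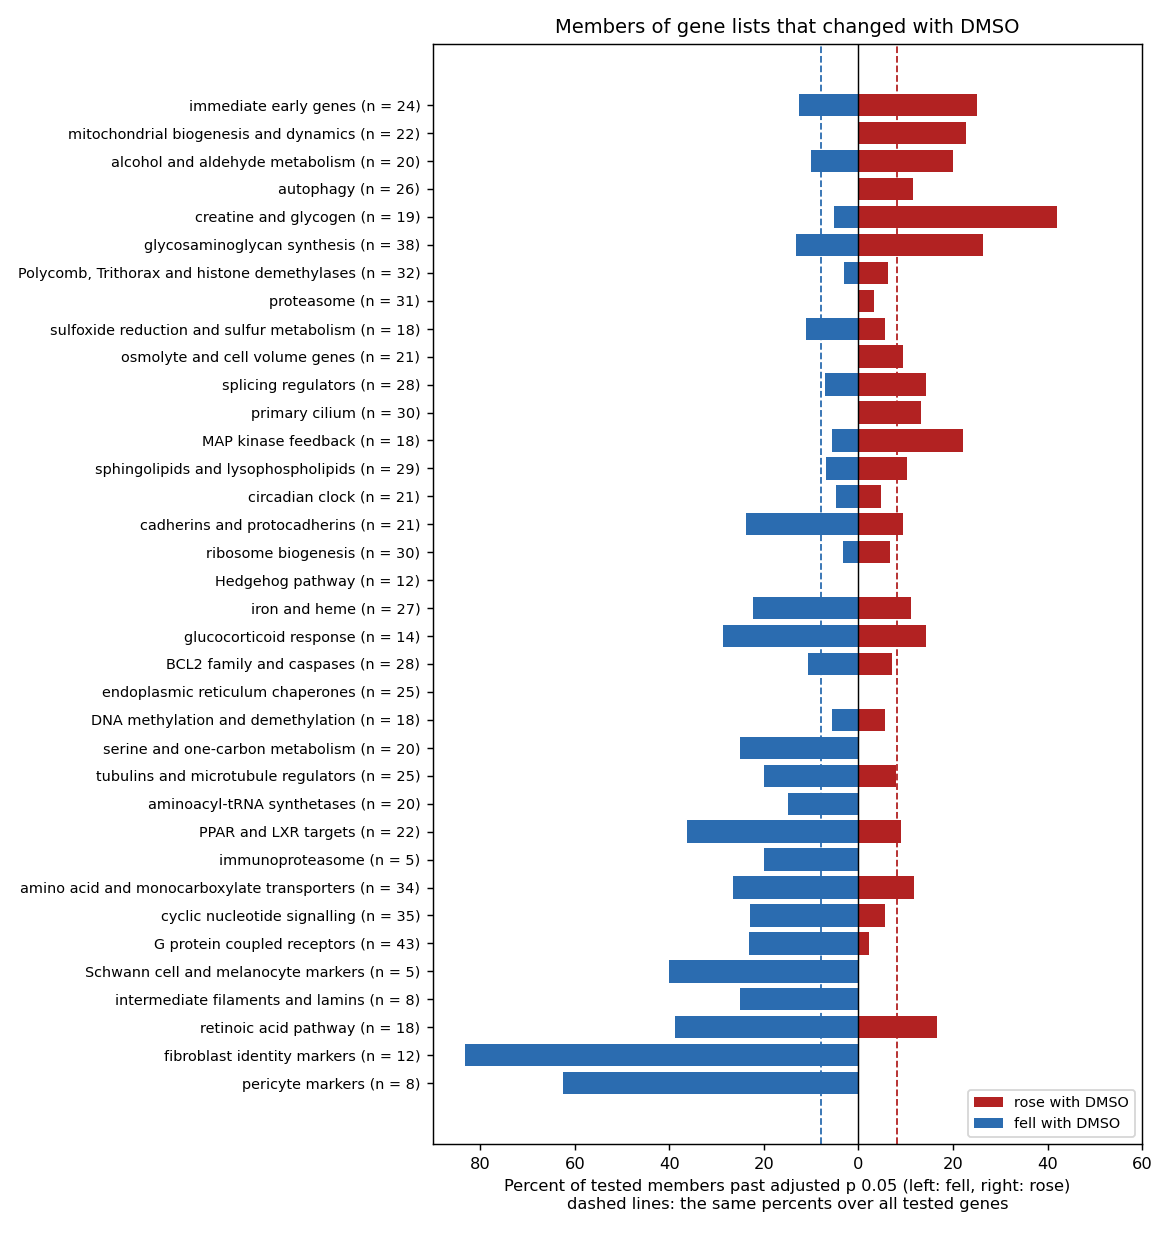
Percent of tested members past the authors' adjusted p of 0.05 in gene lists with at least 5 tested members, to the right for members that rose and to the left for members that fell, with n the number of tested members and dashed lines at 8.07% and 7.90%, the shares over all tested genes. Creatine and glycogen genes (8 of 19) reach furthest to the right and fibroblast identity markers (10 of 12) furthest to the left, while the endoplasmic reticulum chaperone and Hedgehog bars are empty.

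In the lists of receptors and of cyclic nucleotide signalling, more members fell than rose. Of 43 tested G protein coupled and related receptors 10 fell and 1 rose, with a median of -0.31 and 25.6% called, beside 16.0% of all tested genes. Among all tested genes of low count falls also outnumbered rises. Under a mean count of 100, 4.42% fell and 1.97% rose, and from 100 to 300, 9.37% fell and 7.03% rose. Ednrb, the endothelin B receptor, averaged 379 normalised counts with DMSO and 1133 with ethanol and stood at -1.58 ± 0.23 in the authors' deposited table (adjusted p = 9.58e-10). Agtr1a, the angiotensin II receptor of vascular cells, averaged 70.6 normalised counts with DMSO and 228 with ethanol and stood at -1.69 ± 0.30 in the authors' deposited table (adjusted p = 5.76e-07). The orphan receptors Mrgprf and Gprc5b stood at -1.14 ± 0.16 and -1.19 ± 0.17 in the authors' deposited table. The 1 member that rose, Npr3, is a clearance receptor for natriuretic peptides and not a classical member of the family; it averaged 4932 normalised counts with DMSO and 3585 with ethanol and stood at 0.46 ± 0.14 in the authors' deposited table (adjusted p = 0.00895). Of 35 genes of cyclic nucleotide signalling 8 fell and 2 rose, with a median of -0.28, and 5 fell when genes of low count were kept in the adjustment. Called members made up 28.6% of this list. Npr1, the guanylyl cyclase receptor of atrial natriuretic peptide, averaged 112 normalised counts with DMSO and 383 with ethanol and stood at -1.77 ± 0.24 in the authors' deposited table (adjusted p = 3.12e-11). Pde1a, a calcium-activated phosphodiesterase, averaged 393 normalised counts with DMSO and 998 with ethanol and stood at -1.34 ± 0.16 in the authors' deposited table (adjusted p = 8.34e-16). Adcy7, an adenylyl cyclase, averaged 400.2 normalised counts with DMSO and 919.7 with ethanol and stood at -1.20 ± 0.24 in the authors' deposited table (adjusted p = 1.83e-05). Another cyclase, Adcy9, and the protein kinase A subunit Prkar2a rose, with log2 fold changes of 0.57 ± 0.16 and 0.56 ± 0.14 in the authors' deposited table.

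Genes close to growth factor signalling moved upward in part. Of 24 immediate early genes 6 rose and 3 fell, with a median of 0.32, and 3 rose when genes of low count were kept in the adjustment. Called members made up 37.5% of this list, beside 16.0% of all tested genes. Klf2, a transcription factor best known from endothelium under flow, averaged 704 normalised counts with DMSO and 274 with ethanol and stood at 1.36 ± 0.24 in the authors' deposited table (adjusted p = 3.46e-07). Atf3, a stress-induced transcription factor, averaged 455 normalised counts with DMSO and 229.9 with ethanol and stood at 0.99 ± 0.31 in the authors' deposited table (adjusted p = 0.0148). Klf4, a transcription factor of growth arrest, averaged 2016 normalised counts with DMSO and 3074 with ethanol and stood at -0.61 ± 0.15 in the authors' deposited table (adjusted p = 0.000666). The small Maf factor Maff averaged 248 normalised counts with DMSO and 446 with ethanol and stood at -0.84 ± 0.20 in the authors' deposited table (adjusted p = 0.000405). Of 18 MAP kinase feedback genes 4 rose and 1 fell, with a median of 0.082, and 2 rose when genes of low count were kept in the adjustment. Dusp6, a phosphatase of ERK that ERK itself induces, averaged 1513 normalised counts with DMSO and 909.8 with ethanol and stood at 0.73 ± 0.18 in the authors' deposited table (adjusted p = 0.0005). Etv1, an ETS factor downstream of ERK, averaged 318 normalised counts with DMSO and 137 with ethanol and stood at 1.21 ± 0.27 in the authors' deposited table (adjusted p = 0.000157). Spred3, an inhibitor of the pathway, averaged 72.3 normalised counts with DMSO and 170.5 with ethanol and stood at -1.24 ± 0.31 in the authors' deposited table (adjusted p = 0.000981). The glucocorticoid response list had 2 of 14 members higher and 4 lower, with a median of -0.018. Fkbp5, a chaperone induced by glucocorticoid receptor, stood at 0.58 ± 0.14 in the authors' deposited table (adjusted p = 0.000351), and Hsd11b1, which makes active glucocorticoid from inactive steroid, averaged 81.7 normalised counts with DMSO and 235 with ethanol and stood at -1.52 ± 0.30 in the authors' deposited table (adjusted p = 1.34e-05).

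The cytoskeleton and cell contacts changed downward more than upward. Of 25 tubulins and microtubule regulators 5 fell and 2 rose, with a median of -0.15. Tubb4b, a widely expressed beta tubulin, averaged 18640.4 normalised counts with DMSO and 11139 with ethanol and stood at 0.74 ± 0.15 in the authors' deposited table (adjusted p = 3.61e-05). The neuronal tubulin Tubb2b averaged 116 normalised counts with DMSO and 285 with ethanol and stood at -1.30 ± 0.27 in the authors' deposited table (adjusted p = 4.72e-05), and the microtubule destabiliser Stmn2 averaged 29.2 normalised counts with DMSO and 112 with ethanol and stood at -1.95 ± 0.39 in the authors' deposited table (adjusted p = 2.11e-05). Tubulin genes are close paralogues, so their single values are uncertain. Of 8 intermediate filament and lamin genes 2 fell: vimentin, Vim, averaged 92569 normalised counts with DMSO and 124509 with ethanol, and lamin A/C, Lmna, averaged 17121 normalised counts with DMSO and 23759 with ethanol, with log2 fold changes of -0.43 ± 0.12 and -0.47 ± 0.13 in the authors' deposited table. Of 21 cadherins and protocadherins 5 fell and 2 rose, with a median of 0.027, near the 0.035 of all tested genes. Cdh3, P-cadherin, averaged 1747 normalised counts with DMSO and 4201 with ethanol and stood at -1.27 ± 0.15 in the authors' deposited table (adjusted p = 1.11e-14). Cdh13, a cadherin without a cytoplasmic tail, averaged 5982 normalised counts with DMSO and 9905 with ethanol and stood at -0.73 ± 0.15 in the authors' deposited table (adjusted p = 3.07e-05), while Celsr1 was the larger of the 2 rises.

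Enzymes of the sugar chains on proteoglycans were more often higher. Of 38 glycosaminoglycan genes 10 rose and 5 fell, with a median of 0.16, and 3 fell when genes of low count were kept in the adjustment. Called members made up 39.5% of this list, beside 16.0% of all tested genes. Chpf, which extends chondroitin, averaged 6192 normalised counts with DMSO and 4096 with ethanol and stood at 0.60 ± 0.12 in the authors' deposited table (adjusted p = 1.74e-05). Chst11 and Chst2, sulfotransferases, averaged 821 normalised counts with DMSO and 495 with ethanol for Chst11 and 983 normalised counts with DMSO and 597 with ethanol for Chst2, with log2 fold changes of 0.73 ± 0.17 and 0.72 ± 0.16 in the authors' deposited table. Has2, the hyaluronan synthase of mesenchyme, was the steepest fall of the list, averaged 31.4 normalised counts with DMSO and 164 with ethanol and stood at -2.39 ± 0.39 in the authors' deposited table (adjusted p = 3.14e-08). Cemip, which degrades hyaluronan, averaged 3918 normalised counts with DMSO and 5639 with ethanol and stood at -0.53 ± 0.14 in the authors' deposited table (adjusted p = 0.00152). Of 29 sphingolipid and lysophospholipid genes 3 rose and 2 fell, with a median of 0.055; the called share, 17.2%, was near the 16.0% of all tested genes, and 1 fell when genes of low count were kept in the adjustment. The acid sphingomyelinase Smpd1 averaged 5696 normalised counts with DMSO and 3863 with ethanol and stood at 0.56 ± 0.14 in the authors' deposited table (adjusted p = 0.00115).

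Nutrient transport and storage genes went both ways. Of 34 amino acid and monocarboxylate transporters 9 fell and 4 rose, with a median of -0.25. The glutamate transporters parted, since Slc1a2 averaged 448 normalised counts with DMSO and 64.0 with ethanol at 2.81 ± 0.41 in the authors' deposited table (adjusted p = 3.78e-10), while Slc1a3 averaged 594 normalised counts with DMSO and 1232 with ethanol at -1.05 ± 0.15 in the authors' deposited table (adjusted p = 4.01e-10). Slc43a2, a transporter of large neutral amino acids, averaged 1027 normalised counts with DMSO and 468 with ethanol and stood at 1.13 ± 0.25 in the authors' deposited table (adjusted p = 0.000103). Slc7a11, the cystine-glutamate exchanger that feeds glutathione synthesis, averaged 99.4 normalised counts with DMSO and 238 with ethanol and stood at -1.26 ± 0.27 in the authors' deposited table (adjusted p = 8.64e-05). Of 20 serine and one-carbon genes 5 fell and 0 rose, with a median of -0.095 and 6 members with an unadjusted p below 0.05. Phgdh, the first enzyme of serine synthesis, averaged 2334 normalised counts with DMSO and 3807 with ethanol and stood at -0.71 ± 0.16 in the authors' deposited table (adjusted p = 0.000315), and Psat1, the next enzyme, stood at -0.41 ± 0.14 in the authors' deposited table (adjusted p = 0.021). Of 20 aminoacyl-tRNA synthetases 3 fell and 0 rose (15.0% called, near the 16.0% of all tested genes), with a median of -0.16; Gars, the glycine enzyme, averaged 5006 normalised counts with DMSO and 7464 with ethanol and stood at -0.58 ± 0.12 in the authors' deposited table (adjusted p = 3.01e-05). Creatine and glycogen genes went upward, with 8 of 19 higher, 1 lower and a median of 0.17, and the lower members were 3 with either other scaling. Stbd1, which anchors glycogen to membranes, averaged 1619 normalised counts with DMSO and 795 with ethanol and stood at 1.03 ± 0.14 in the authors' deposited table (adjusted p = 5.44e-12). Gbe1, the glycogen branching enzyme, averaged 2021 normalised counts with DMSO and 1153 with ethanol and stood at 0.81 ± 0.16 in the authors' deposited table (adjusted p = 6.54e-06). Ckb, brain creatine kinase, averaged 3293 normalised counts with DMSO and 1767 with ethanol and stood at 0.90 ± 0.21 in the authors' deposited table (adjusted p = 0.000261), and the phosphorylase kinase subunit Phkg1 averaged 276 normalised counts with DMSO and 479 with ethanol and stood at -0.80 ± 0.20 in the authors' deposited table (adjusted p = 0.000808).

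Iron, lipid and mitochondrial genes made up the rest of the metabolic lists. Of 27 iron and heme genes 6 fell and 3 rose, with a median of 0.0061. Tfrc, the transferrin receptor that imports iron, averaged 3046 normalised counts with DMSO and 1789.7 with ethanol and stood at 0.77 ± 0.13 in the authors' deposited table (adjusted p = 3.86e-07). The exporter ferroportin, Slc40a1, averaged 543 normalised counts with DMSO and 324 with ethanol and stood at 0.75 ± 0.21 in the authors' deposited table (adjusted p = 0.00348), and the storage subunit Fth1 averaged 19386 normalised counts with DMSO and 14722 with ethanol and stood at 0.40 ± 0.12 in the authors' deposited table (adjusted p = 0.00976). Transferrin itself, Trf, averaged 1448 normalised counts with DMSO and 4456 with ethanol and stood at -1.62 ± 0.19 in the authors' deposited table (adjusted p = 8.36e-15). Of 22 PPAR and LXR targets 8 fell and 2 rose, with a median of -0.20. Apoe, the apolipoprotein of cholesterol export, averaged 2301 normalised counts with DMSO and 6060.2 with ethanol and stood at -1.40 ± 0.14 in the authors' deposited table (adjusted p = 1.92e-20). Ucp2, a mitochondrial carrier, averaged 347 normalised counts with DMSO and 901 with ethanol and stood at -1.38 ± 0.17 in the authors' deposited table (adjusted p = 2.81e-13). Fabp4, a fatty acid binding protein of adipocytes, stood at -0.75 ± 0.19 in the authors' deposited table (adjusted p = 0.00117), and its paralogue Fabp5 at 0.58 ± 0.19 in the authors' deposited table (adjusted p = 0.019). Of 22 genes of mitochondrial biogenesis and dynamics 5 rose and 0 fell, with a median of 0.25 and 10 members with an unadjusted p below 0.05. Ppargc1a, the coactivator PGC-1 alpha, averaged 620.5 normalised counts with DMSO and 405 with ethanol and stood at 0.61 ± 0.19 in the authors' deposited table (adjusted p = 0.0103). Bnip3l and Pink1, both of mitophagy, averaged 4319 normalised counts with DMSO and 2952 with ethanol for Bnip3l and 7703 normalised counts with DMSO and 5539.5 with ethanol for Pink1, with log2 fold changes of 0.55 ± 0.13 and 0.48 ± 0.13 in the authors' deposited table.

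Few endoplasmic reticulum chaperones and proteasome subunits passed the test. Of 25 endoplasmic reticulum chaperones and related genes none passed DESeq2's Wald test in the authors' deposited table, 2 had an unadjusted p below 0.05, and the values lay between -0.32 and 0.31. The member with the highest mean count, Hspa5 (BiP), averaged 50372 normalised counts with DMSO and 51093 with ethanol, with a log2 fold change of -0.021 ± 0.15 in the authors' deposited table. Of 31 proteasome subunits 1 rose and 0 fell, with a median of 0.14, and this call was lost when genes of low count were kept in the adjustment. Of 5 immunoproteasome genes 1 fell, the catalytic subunit Psmb8, which averaged 302 normalised counts with DMSO and 611 with ethanol and stood at -1.02 ± 0.19 in the authors' deposited table (adjusted p = 4.05e-06). Of 26 autophagy genes 3 rose and 0 fell (11.5% called, below the 16.0% of all tested genes), with a median of 0.21. Atg12, which is conjugated to Atg5 on forming autophagosomes, averaged 2693 normalised counts with DMSO and 1662 with ethanol and stood at 0.70 ± 0.14 in the authors' deposited table (adjusted p = 1.69e-05). Becn1, beclin 1, averaged 3923 normalised counts with DMSO and 2847 with ethanol and stood at 0.46 ± 0.14 in the authors' deposited table (adjusted p = 0.0128). The BCL2 family and caspases had 2 of 28 members higher and 3 lower, with a median of -0.044, a called share of 17.9% that was near the 16.0% of all tested genes. The mitochondrial pro-apoptotic Diablo averaged 1553 normalised counts with DMSO and 928 with ethanol and stood at 0.74 ± 0.15 in the authors' deposited table (adjusted p = 2.31e-05), and Bbc3 (PUMA) averaged 391 normalised counts with DMSO and 597 with ethanol and stood at -0.61 ± 0.19 in the authors' deposited table (adjusted p = 0.0122).

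The called share was 21.4% among splicing regulators, 9.38% among Polycomb, Trithorax and histone demethylase genes and 11.1% in DNA methylation and demethylation, beside 16.0% of all tested genes. Of 28 splicing regulators 4 rose and 2 fell, with a median of 0.097, and both downward calls were lost when genes of low count were kept in the adjustment. The largest rises were in 2 regulators of muscle splicing: Rbm20, which splices titin, averaged 2150.1 normalised counts with DMSO and 761 with ethanol and stood at 1.499 ± 0.14 in the authors' deposited table (adjusted p = 6.68e-25), and Rbm24 averaged 2421 normalised counts with DMSO and 939.7 with ethanol and stood at 1.37 ± 0.18 in the authors' deposited table (adjusted p = 1.79e-12). Celf1, an antagonist of Muscleblind proteins, averaged 4561 normalised counts with DMSO and 3039.9 with ethanol and stood at 0.59 ± 0.14 in the authors' deposited table (adjusted p = 0.000797). Of 30 ribosome biogenesis genes 2 rose and 1 fell (10% called, below the 16.0% of all tested genes), with a median of 0.011. Rrn3, an initiation factor of RNA polymerase I, stood at 0.42 ± 0.12 in the authors' deposited table (adjusted p = 0.0074). Of 32 Polycomb, Trithorax and histone demethylase genes 2 rose and 1 fell, with a median of 0.15. Ezh1, a Polycomb histone methyltransferase of non-dividing cells, averaged 1944 normalised counts with DMSO and 1416 with ethanol and stood at 0.46 ± 0.13 in the authors' deposited table (adjusted p = 0.00587). Of 18 genes of DNA methylation and demethylation 1 rose and 1 fell, with a median of -0.084. The methyltransferases Dnmt1 and Dnmt3a, at 0.077 ± 0.14 and -0.0016 ± 0.12 in the authors' deposited table, and the demethylases Tet1, Tet2 and Tet3, at -0.046 ± 0.20, -0.11 ± 0.19 and -0.088 ± 0.21 in the authors' deposited table, did not pass the test. Of 12 tested Hedgehog genes none passed DESeq2's Wald test in the authors' deposited table and 1 had an unadjusted p below 0.05. The 2 members with the highest mean counts were Gas1, at 12834 normalised counts with DMSO and 13432 with ethanol, and Cdon, at 7556 normalised counts with DMSO and 7434 with ethanol. Of 30 primary cilium genes 4 rose and 0 fell, with a median of 0.097 and 1 rise when genes of low count were kept in the adjustment. The called share of the cilium list, 13.3%, was below the 16.0% of all tested genes. Ift140, of retrograde transport in the cilium, averaged 1288 normalised counts with DMSO and 864 with ethanol and stood at 0.58 ± 0.17 in the authors' deposited table (adjusted p = 0.00905).

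Of the 14830 tested genes 12984 were protein-coding, and 8.89% of these rose and 8.65% fell. Among 319 long intergenic noncoding RNAs 16 rose and 18 fell, and among 313 antisense RNAs 9 rose and 6 fell. Besides H19, the steepest of the 4 chosen downward was 3300005D01Rik, on chromosome 17, which averaged 58.7 normalised counts with DMSO and 371 with ethanol and stood at -2.66 ± 0.26 in the authors' deposited table (adjusted p = 7.5e-23). Igf2os, antisense to Igf2, averaged 117 normalised counts with DMSO and 444 with ethanol and stood at -1.92 ± 0.27 in the authors' deposited table (adjusted p = 5.54e-11); the sources used here do not say that counting used strand, so its reads and those of Igf2 cannot be told apart. Upward, Gm45123 on chromosome 7 averaged 449.5 normalised counts with DMSO and 131 with ethanol and stood at 1.78 ± 0.24 in the authors' deposited table (adjusted p = 1.96e-11). Gm12840 on chromosome 4 averaged 1606 normalised counts with DMSO and 629 with ethanol and stood at 1.35 ± 0.24 in the authors' deposited table (adjusted p = 9.01e-07). Of 66 tested small nucleolar RNA genes none passed DESeq2's Wald test in the authors' deposited table, with 0 at an unadjusted p below 0.05.

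Changed genes sat side by side in places. Of the 12984 tested protein-coding genes 8.89% rose and 8.65% fell, and how many runs a random order would give was not tested. With these genes put in order along GRCm38, 24 runs of 3 or more neighbours fell together and 8 such runs rose together. The longest held 7 serpin genes on chromosome 12 between 104101113 and 104414329, Serpina5, Serpina3b, Serpina3c, Serpina3g, Serpina3i, Serpina3m and Serpina3n, with a median log2 fold change of -2.29. A run of 5 histone genes on chromosome 13, Hist1h3h, Hist1h4j, Hist1h4k, Hist1h2ak and Hist1h2bn, rose, with a median of 1.20. Both runs hold genes that have close copies, such as the Serpina3 genes, and reads of such copies can be shared. How many of their genes changed is therefore uncertain. Other runs that fell held the class I genes H2-D1, H2-Q4, H2-Q6 and H2-Q7 on chromosome 17, again close copies, and the leucine-rich proteoglycans Dcn, Lum and Epyc on chromosome 10. Dcn averaged 53384 normalised counts with DMSO and 73674 with ethanol, Lum 10470.5 normalised counts with DMSO and 20509 with ethanol and Epyc 30.6 normalised counts with DMSO and 252 with ethanol, and the median log2 fold change of this run was -0.97. A further run held the tenascins Tnr and Tnn with 4930523C07Rik between them on chromosome 1, with a median of -2.24. By chromosome, chromosome 7 had the lowest share of genes that rose among the autosomes, 55 of 1130 (4.87%), with 116 that fell (10.3%), and chromosome 13 had 60 of 548 that rose (10.9%) and 31 that fell (5.66%).

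The differences of DMSO from the 2 inhibitors were tested on the same cells, with an SE rebuilt from the deposited ones. Between DMSO and I-CBP112, 1034 genes differed (6.97% of the tested genes), 395 higher (2.66%) and 639 lower (4.31%) with DMSO. Between DMSO and C646, 2351 differed (15.9%), 1168 higher (7.88%) and 1183 lower (7.98%) with DMSO. Genes past the test against ethanol and past both of these, in 1 direction, numbered 536 (3.61%), of which 171 (1.15%) were higher and 365 (2.46%) lower with DMSO. The 3 tests share the DMSO libraries. A wider SE, formed by adding the squares of both deposited errors and taking the root, left 237 genes different from I-CBP112, 839 different from C646 and 131 past all 3 tests. The genes whose difference from I-CBP112 is given next passed with both errors.

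Tpm2, a tropomyosin of smooth and slow skeletal muscle, had the smallest adjusted p in the test against I-CBP112 and averaged 4089.6 normalised counts with DMSO, 17479 with I-CBP112, 15067 with C646 and 14955 with ethanol. Its difference of DMSO minus I-CBP112 was -2.10 ± 0.12 (adjusted p = 3.35e-64) in the rebuilt test, and DMSO had the lowest of the 4 means. Serpina3n averaged 5974 normalised counts with DMSO, 18835 with I-CBP112, 43884 with C646 and 39868 with ethanol, with a difference of -1.66 ± 0.11 (adjusted p = 7.97e-49). Serpinb9b, an intracellular inhibitor of granzyme-like proteases, averaged 81.1 normalised counts with DMSO, 392 with I-CBP112, 950.3 with C646 and 790.3 with ethanol, with a difference of -2.27 ± 0.22 (adjusted p = 2.13e-22). In both serpins the I-CBP112 group lay between DMSO and the other groups. Gvin1, a very large interferon-inducible GTPase, averaged 1271 normalised counts with DMSO, 3579 with I-CBP112, 4889 with C646 and 4791 with ethanol, with a difference of -1.49 ± 0.13 (adjusted p = 3.12e-26). Ucp2 averaged 347 normalised counts with DMSO, 959.5 with I-CBP112, 984 with C646 and 901 with ethanol, with a difference of -1.47 ± 0.17 (adjusted p = 2.51e-14). The noncoding 3300005D01Rik averaged 58.7 normalised counts with DMSO, 296 with I-CBP112, 337 with C646 and 371 with ethanol, with a difference of -2.33 ± 0.26 (adjusted p = 3.79e-16). For these 3 genes the log2 fold change of I-CBP112 over ethanol was -0.42 ± 0.13, 0.091 ± 0.17 and -0.33 ± 0.23 in the authors' deposited table, and DMSO had the lowest mean in each.

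A few genes had rebuilt means with DMSO and with I-CBP112 on opposite sides of the mean with ethanol. The differences given are DMSO minus I-CBP112, so they do not say that I-CBP112 itself differed from ethanol. Slc43a2 averaged 1027 normalised counts with DMSO, 299 with I-CBP112, 543 with C646 and 468 with ethanol, with a difference of 1.78 ± 0.25 (adjusted p = 3.52e-10). Mlana, a melanosome protein, averaged 56.5 normalised counts with DMSO, 229 with I-CBP112, 120.1 with C646 and 125 with ethanol, with a difference of -2.02 ± 0.30 (adjusted p = 5.9e-09). Rnd1, an atypical small GTPase that loosens adhesion, averaged 357 normalised counts with DMSO, 765 with I-CBP112, 597 with C646 and 612 with ethanol, with a difference of -1.10 ± 0.18 (adjusted p = 5.83e-08). For Mlana the log2 fold changes over ethanol were -1.14 ± 0.31 with DMSO and 0.87 ± 0.29 with I-CBP112 in the authors' deposited table. Apoe averaged 2301 normalised counts with DMSO, 4595 with I-CBP112, 6151 with C646 and 6060.2 with ethanol, with a difference of -0.998 ± 0.14 (adjusted p = 6.18e-10), and Npr1 averaged 112 normalised counts with DMSO, 285 with I-CBP112, 385 with C646 and 383 with ethanol, with a difference of -1.35 ± 0.25 (adjusted p = 4.75e-06). In both the I-CBP112 mean lay between those of DMSO and ethanol.

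Among the 10 genes chosen in each direction from the 536, DMSO had the value farthest from 0 in every gene. The choice required DMSO to lie beyond both inhibitors in the direction of its change, so it largely sets this outcome. With the wider error, only Myl1, Cited1, Serpinb9b, Col28a1, Tgtp2 and Serpina3n of them kept their difference from I-CBP112. The myosin light chain Myl1 averaged 28824 normalised counts with DMSO, 7649 with I-CBP112, 1205 with C646 and 1015 with ethanol. Cited1, a transcriptional partner of CBP and p300, averaged 1150.1 normalised counts with DMSO, 549.5 with I-CBP112, 181 with C646 and 185 with ethanol, with a difference from I-CBP112 of 1.07 ± 0.21 (adjusted p = 5.19e-05). Dpysl5, a collapsin response mediator of growing axons, averaged 358 normalised counts with DMSO, 132 with I-CBP112, 84.8 with C646 and 83.7 with ethanol, and its difference of 1.44 ± 0.32 (adjusted p = 0.000313) was lost with the wider error. Col28a1 averaged 216 normalised counts with DMSO, 521 with I-CBP112, 1951 with C646 and 1845 with ethanol, with a difference of -1.27 ± 0.16 (adjusted p = 5.34e-12). Tgtp2 averaged 15.7 normalised counts with DMSO, 88.0 with I-CBP112, 84.6 with C646 and 114 with ethanol, with a difference of -2.49 ± 0.53 (adjusted p = 0.000174). For Myl1, Cited1, Dpysl5 and Col28a1 the means with C646 stood near those with ethanol.

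**Figure D4:**
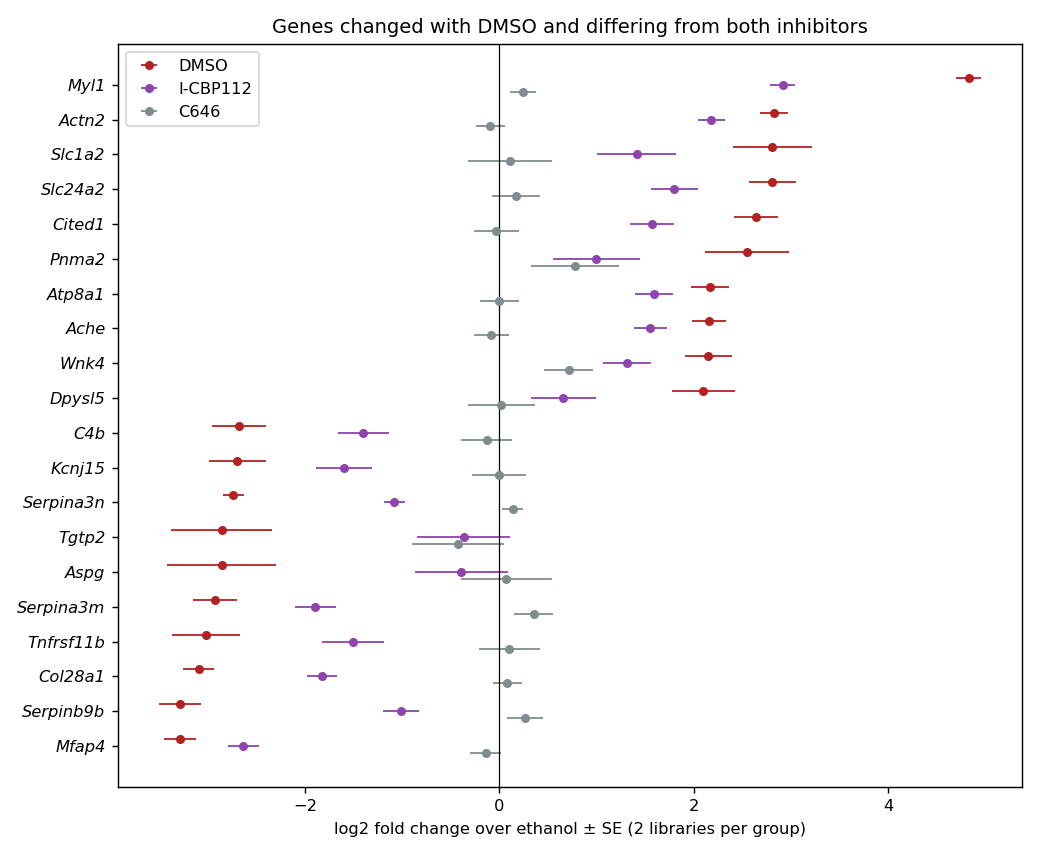
Log2 fold change over ethanol ± SE in the authors' deposited tables (horizontal axis; 2 libraries per group) with DMSO in red, I-CBP112 in purple and C646 in grey, for 10 genes higher and 10 genes lower with DMSO among those past all 3 tests. C646 points lie near 0 except for Pnma2 and Wnk4, I-CBP112 points lie between C646 and DMSO for most genes, and Myl1 reaches 4.83 with DMSO and 2.91 with I-CBP112. With the wider error, only Myl1, Cited1, Serpinb9b, Col28a1, Tgtp2 and Serpina3n of the genes shown kept their difference from I-CBP112.

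**Figure D5:**
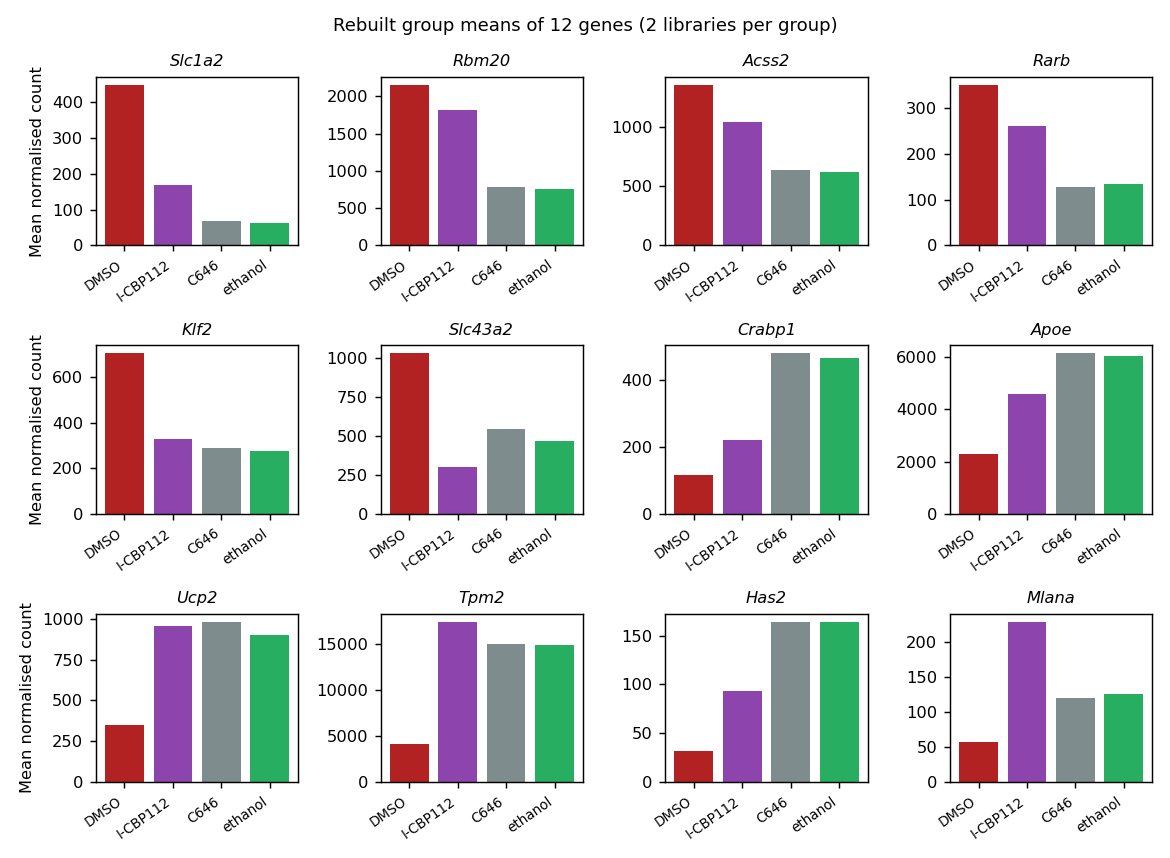
Rebuilt mean normalised counts (vertical axes, each from 0) of 12 genes named in the text, with 1 bar per group in the order DMSO, I-CBP112, C646 and ethanol; the tables hold no values of single libraries, so there are no error bars. Slc1a2, Rbm20, Acss2, Rarb, Klf2 and Slc43a2 are highest with DMSO, while Crabp1, Apoe, Ucp2, Tpm2, Has2 and Mlana are lowest with DMSO.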

How the data were processed

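RNA was measured by sequencing in 8 libraries, 2 per treatment, grouped by the treatment in the labels. Per the submitters' processing notes, the authors used kallisto 0.43.1 with GRCm38.p5 and DESeq2 (no version given there). The deposited tables, per the file headers, hold comparisons only. Their signal is the authors' mean normalised count over all 8 libraries, and it is equal in the 3 tables. The log2 fold change and its SE are the authors' own, the quotient of both is the score the authors deposited as a Wald statistic, and the p-values and adjusted p-values are the authors'. No depth per library is given in these tables, so the SE is the measure of precision.

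Genes with the authors' adjusted p below 0.05 were called changed. Group means were rebuilt from the signal and the 3 log2 fold changes. Differences of DMSO from each inhibitor were tested with an SE rebuilt from group means and 1 dispersion per gene, a normal p and Benjamini-Hochberg adjustment over 14830 genes, with Python 3.11.15, pandas 2.3.3, numpy 2.4.6 and scipy 1.17.1. The rebuilt SE was within 1% of the deposited one for 98.6% of genes in the DMSO table. On simulated data for DMSO minus I-CBP112 over 14830 genes, 34.0%, 74.0%, 84.0% and 94.0% of 50 genes each changed 1.5-, 2-, 3- and 4-fold were recovered, with 14 false calls. The recovered genes numbered 17, 37, 42 and 47, so the share of false calls among all calls was above the 0.05 threshold. The simulated SE used the dispersion from which the counts were drawn, so error in estimating it was not covered. Fewer genes were changed there than the 1034 that differed between DMSO and I-CBP112 in the data. Gene symbols are the authors'; positions were taken from GENCODE M21 (14807 of the 14830 tested genes matched) and promoter sequences from RefSeq.

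The members, the 41 gene lists, the tests and the rule for named genes were chosen with earlier results of these data known. The rule took genes past adjusted p 0.05 whose mean normalised count reached 50: ranks 9 to 20 by fold change, 8 per direction by Wald statistic and by difference in counts, up to 4 per direction and list by adjusted p, 10 per direction among genes past all 3 tests, and 4 long noncoding genes per direction. A list with no call gave its 2 members of highest mean count. The runs of neighbouring genes, chromosomes and other list members given without a call were named after their values were seen. A few genes and 1 list chosen by these rules are not reported here. Alternatives were another filter on low counts, other scalings, a t distribution, stricter thresholds and a wider error.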

Additional observations from a re-analysis of the deposited data

How the results depend on the processing

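With a t distribution (4 degrees of freedom) replacing the normal one, 1 gene passed against ethanol, 1 upward and 0 downward, and the same held for changes of at least 2-fold. With an adjusted p below 0.01, 1522 genes passed and 682 of them were upward. A Wald test against a fold change of 2 left 116 genes, 38 upward and 78 downward. The wider error left 237 genes different from I-CBP112 (69 higher and 168 lower with DMSO), 839 different from C646 (328 and 511) and 131 past all 3 tests (21 and 110). With all genes in the adjustment, those past all 3 tests in the upward direction numbered 112. Under that setting, of 1885 genes called, 1844 were also called with the filter. Of the 210 called list genes 162 kept their call with all genes in the adjustment, 200 scaled to equal totals and 194 centred on the median gene, and 0 changed direction. Sparc and Actb lost their call with all genes in the adjustment, at -0.34 and -0.32. The scalings shifted log2 fold changes by 0.019 and 0.035. The cause of these shifts in counts was not tested. The upward and downward counts against ethanol, 1197 and 1171, turned in balance to 972 and 1283 centred on the median gene, 1055 and 1223 scaled to equal totals, 884 and 1001 with all genes in the adjustment and 682 and 840 at an adjusted p below 0.01. With all genes in the adjustment, 1 rise in place of 2 was left in each of the lists of ribosome biogenesis, Polycomb and Trithorax, tubulin, cadherin, and PPAR and LXR genes, and the lists of DNA methylation (rose) and Polycomb and Trithorax (fell) lost their 1 call. No paired analysis was possible because the tables hold no values of single libraries, and for the same reason leaving out each library in turn was not run.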

Other observations

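The 19420 genes with counts but without an adjusted p, all under a mean normalised count of 26.1, had a median SE of 2.57 on the log2 scale in the authors' deposited table. Of these, 296 (1.52%) had an unadjusted p below 0.05 there, 97 higher and 199 lower with DMSO. With all genes in the adjustment, 41 of them passed, 19 upward and 22 downward. Their fitted fold changes rest on counts near 0 and are not given.

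Mitochondrial ribosomal RNA held 12.7% of all rebuilt counts with DMSO and 10.5% with ethanol. Its 2 genes did not pass the test, and of 5 tested mitochondrial tRNA genes 3 rose in the authors' deposited table. Among the 9 tested microRNA genes 3 fell and 0 rose. Median transcript length was 2918 bases in genes that rose, 2755 in genes that fell and 2629 in genes that did not pass.

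In the authors' deposited tables the share of tested genes with an unadjusted p above 0.5 was 32.7% for DMSO, 40.3% for I-CBP112 and 77.6% for C646. Evenly spread p-values would put equal shares above and below 0.5, so those for C646 lay high. The reason was not tested.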
